A study of Mus musculus with 4 samples.

Results

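The leukocyte integrins are the cell surface receptors by which white blood cells hold on to other cells and to matrix. They were taken here as 10 genes matched by symbol, Itgal, Itgam, Itgax, Itgad, Itgb2, Itga4, Itga9, Itga6, Itgb1 and Itgb7, of the 17008 genes that had a uniquely mapped read in any library, and all 10 had reads in all 4 libraries. The libraries were made from macrophages sorted from C57BL/6J mice, labelled as 6 to 8 weeks old. T-ALL spleen and T-ALL bone marrow came from mice with T cell acute lymphoblastic leukaemia, taken 21 days after GFP+ leukaemia cells from other leukaemic mice were transplanted with no irradiation, a model in which mice survived 35 to 40 days. Normal spleen and normal bone marrow came from mice at day 0. The sources used here do not give the markers of the sort, the sex of the mice, how many were pooled or the gene that drives the leukaemia. The design compares leukaemia-associated macrophages with those of homeostasis, and each combination of organ and condition has 1 library. With no replicates, differences cannot be set against a spread between animals, and p-values were not computed.

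An integrin is a pair of 1 alpha and 1 beta chain, and both chains are needed for the receptor to reach the surface. The chain encoded by Itgb2 (beta2, CD18) pairs with the alpha chains of Itgal (CD11a, forming LFA-1), Itgam (CD11b, forming Mac-1 or complement receptor 3), Itgax (CD11c, forming complement receptor 4) and Itgad (CD11d), which bind ICAMs, complement fragments and VCAM-1. The chain of Itga4 (CD49d) pairs with that of Itgb1 to bind VCAM-1 and fibronectin, or with that of Itgb7 to bind MAdCAM-1. The chains of Itga9 and Itga6 also pair with beta1, and they bind matrix proteins such as tenascin-C and laminins. Macrophages are commonly sorted or defined by CD11b, and CD11d is known as a marker of red pulp macrophages of the spleen.

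Itgam, Itgax and Itgad follow each other on mouse chromosome 7 in the RefSeq annotation of GRCm38.p6, with only pseudogenes between them, and Itgal lies on the same chromosome. RefSeq promoters, 250 bases before and 50 bases from the start, were found for 6 of the 10 genes. Those of Itgam and Itgax are shown because these neighbours had different patterns over the libraries. The Itgam window is chr7:128062390-128062689 and the Itgax window chr7:128129300-128129599, both on the plus strand of GRCm38.p6. Capitals mark matches on either strand to 6 motifs: GAGGAA (the core bound by PU.1), TGTGGT (RUNX), GGGCGG (Sp1), CCAAT (bound by NF-Y), TGACTCA (AP-1) and CACGTG (the E-box).
Itgam: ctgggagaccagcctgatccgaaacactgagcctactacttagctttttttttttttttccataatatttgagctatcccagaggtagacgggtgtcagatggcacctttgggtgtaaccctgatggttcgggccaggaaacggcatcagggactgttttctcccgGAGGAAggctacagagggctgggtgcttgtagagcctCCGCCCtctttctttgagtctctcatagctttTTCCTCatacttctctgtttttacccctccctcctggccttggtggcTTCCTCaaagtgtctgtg
Itgax: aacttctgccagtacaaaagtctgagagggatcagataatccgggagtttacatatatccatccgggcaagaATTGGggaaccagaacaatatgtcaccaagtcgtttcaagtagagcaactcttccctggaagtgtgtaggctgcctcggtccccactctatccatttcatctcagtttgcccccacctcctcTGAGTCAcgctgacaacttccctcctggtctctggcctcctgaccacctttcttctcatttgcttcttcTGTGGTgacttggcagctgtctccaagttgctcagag
The Itgam window held 3 matches to GAGGAA and 1 to GGGCGG. The Itgax window held no match to either, but 1 each to the RUNX, NF-Y and AP-1 motifs. No matched bases belonged to a pair of motifs, and neither window held CACGTG. Of 32851 promoters of this length, 28.3% held the PU.1 core, 16.8% the RUNX motif, 35.7% the Sp1 motif, 37.4% the NF-Y motif, 5.20% the AP-1 motif and 7.15% the E-box. A match is only a description of these letters.

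After TMM scaling of library size, the uniquely mapped reads came to 9236820 in T-ALL spleen, 8939756 in normal spleen, 9318043 in T-ALL bone marrow and 9856658 in normal bone marrow, and reads were found for 15133 to 15569 genes per library. Levels are given as CPM (counts per 1000000 reads of the library's scaled total), in which 1 read was worth 0.101 to 0.112 CPM. Intervals are 95% and cover counting error alone, and reads copied by PCR make them too narrow. To be called higher or lower, a gene had to reach 10 CPM in the library with more and to change by 2-fold or more after 1 CPM was added to both values, and log2 folds are on that log2(CPM + 1) scale. Folds without a log are ratios of CPM. Genes of other cells were present throughout, and in these bulk libraries fewer cells of a type and less RNA per cell cannot be told apart. Over the 15 macrophage core genes with reads (Csf1r, Emr1, Mertk, Lyz2 and others), summed CPM was 7966 in the library of T-ALL spleen, 12760 in that of normal spleen, 14256 in that of T-ALL bone marrow and 5807 in that of normal bone marrow, and none of these genes was at 0 reads in any library. Much of the sum in bone marrow came from Lyz2 and Cybb. In the same order of libraries, Lyz2 was at 241, 946, 5494 and 2572 CPM and Cybb at 357, 780, 1665 and 1244 CPM. Csf1r ordered the libraries differently, at 1421, 2415, 947 and 133 CPM, so the sums are not a measure of macrophage content. The 14 neutrophil precursor genes summed to 210 and 476 CPM in T-ALL and normal spleen, against 22179 and 40601 CPM in T-ALL and normal bone marrow. The 18 T cell genes summed to 4831, 1412, 1044 and 304 CPM in T-ALL spleen, normal spleen, T-ALL bone marrow and normal bone marrow. Sex-linked transcripts differed too. The Y-linked Ddx3y had 532 and 874 reads in T-ALL spleen and bone marrow and 0 reads in both normal libraries, where a count of 0 allows up to 3 reads. Xist, transcribed from the inactive X, had 3846 reads in T-ALL spleen and 7588 in normal spleen, and 6 reads in T-ALL and 8485 in normal bone marrow. T-ALL spleen thus held both transcripts and T-ALL bone marrow almost no Xist, and the part of sex in the comparisons by condition and in that between the T-ALL organs was not tested.

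**Figure D1:**
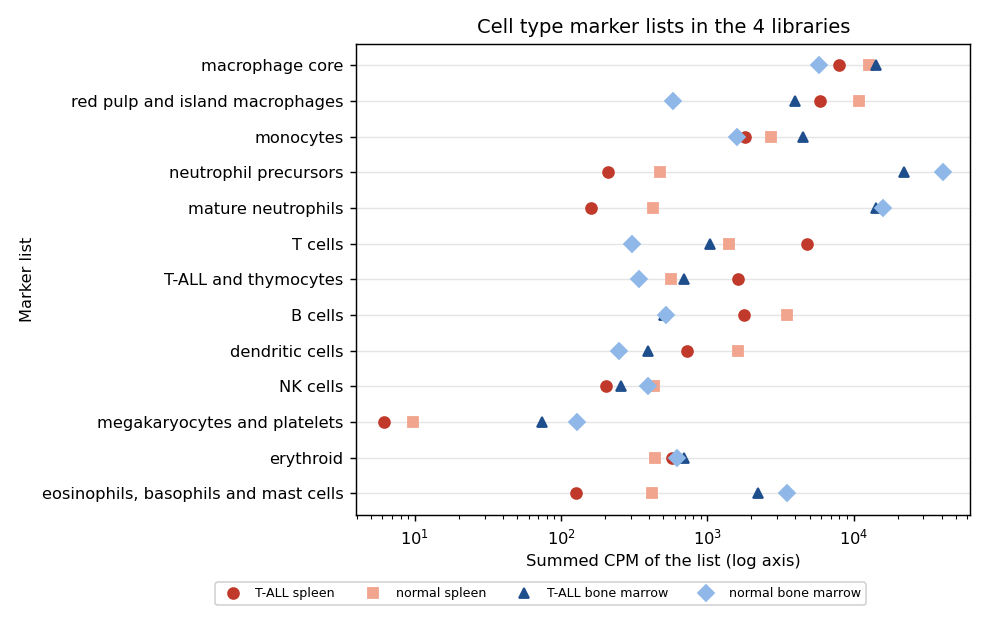
Summed CPM (log axis) of 13 fixed marker lists, 1 row each, in the 4 libraries (1 point per library, no replicates). Neutrophil precursor genes ranged from 210 CPM in T-ALL spleen to 40601 CPM in normal bone marrow, and T cell genes from 304 CPM in normal bone marrow to 4831 CPM in T-ALL spleen.

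Itgb2 had the highest level per length of the 10 genes in every library. In RPKM (reads per kilobase of the gene and per 1000000 reads), which allows levels of different genes to be set side by side, it stood at 270 in T-ALL spleen, 360 in normal spleen, 354 in T-ALL bone marrow and 227 in normal bone marrow. It ranked 216, 151, 167 and 253 among all genes in the same libraries. In T-ALL spleen the order of RPKM after Itgb2 was Itgal (131), Itgb1 (78.1), Itgad (74.5), Itgb7 (47.4), Itgax (38.1), Itga4 (34.7), Itga9 (27.3), Itgam (17.0) and Itga6 (3.48), and the intervals of Itgb1 and Itgad overlapped. In normal spleen Itgal (159), Itgad (148), Itgax (141), Itgb7 (124) and Itgb1 (105) followed Itgb2, with overlapping intervals for Itgad and Itgax, and Itga4 (72.6), Itgam (46.4), Itga9 (32.4) and Itga6 (6.36) came after them. In bone marrow Itgam took the place next to Itgb2. The T-ALL bone marrow library had Itgam at 185, Itgal at 138, Itgb1 at 86.0, Itgb7 at 81.5, Itga4 at 61.9, Itgad at 25.2, Itgax at 24.1, Itga6 at 13.3 and Itga9 at 5.87 RPKM, and the pairs Itgb1 and Itgb7 and Itgad and Itgax overlapped. Normal bone marrow had Itgam at 156, Itgb1 at 70.6, Itgal at 67.4, Itgb7 at 36.0, Itga4 at 35.8, Itga6 at 17.8, Itgax at 11.4, Itgad at 1.95 and Itga9 at 1.40 RPKM. There Itgb1 overlapped Itgal, Itgb7 overlapped Itga4 and Itgad overlapped Itga9.

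**Figure D2:**
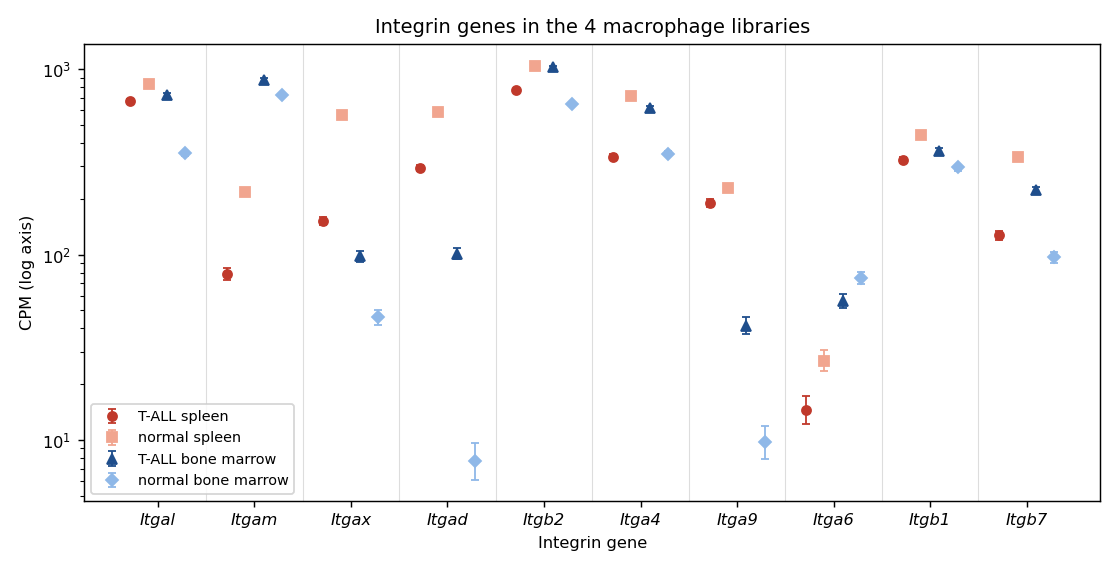
CPM (log axis) of the 10 integrin genes in the 4 libraries; each point is 1 library and bars are exact Poisson 95% intervals of counting error. Itgad and Itga9 lie lowest in normal bone marrow, at 7.71 and 9.74 CPM, while Itgam is highest in the T-ALL and normal bone marrow libraries, at 874 and 726 CPM.

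In the spleen, all 10 genes had fewer CPM in the T-ALL library than in the normal library, and 5 passed 2-fold: Itgax, Itgam, Itgb7, Itga4 and Itgad were lower and 0 were higher. Of the 9774 genes measured in this comparison, 11.0% were lower and 10.3% higher, 21.4% in all. The median log2 fold of the 10 genes was -0.93, against -0.08 over all genes measured. The macrophage core list had a median of -0.79 with 7 of 15 genes lower. Lists of other cells had medians as near to that of the integrins, among them B cells (-0.93) and eosinophils, basophils and mast cells (-0.92). The T cell, T-ALL and thymocyte, and erythroid lists lay above 0 (1.35, 2.60 and 0.29).

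Itgax, the CD11c chain of dendritic cells and some macrophages, was at 152 CPM in T-ALL spleen and 569 CPM in normal spleen, 3.74-fold lower (3.52 to 3.97). Of the 13 dendritic cell genes 11 were lower and 0 higher, and the list summed to 729 and 1634 CPM. Most of these sums came from a few genes. Dpp4 was at 266 CPM in T-ALL and 230 CPM in normal spleen, Ciita at 151 and 468 CPM, Ccr7 at 122 and 226 CPM, and Btla at 90.5 and 203 CPM. Flt3, whose ligand drives the growth of dendritic cells, was at 22.4 CPM in T-ALL spleen and 161 CPM in normal spleen. The part of dendritic cells in the level of Itgax was not tested.

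Itgam was at 78.9 CPM in T-ALL spleen and 218 CPM in normal spleen, 2.76-fold lower (2.54 to 3.01). The 8 neutrophil precursor genes and 5 mature neutrophil genes that reached 10 CPM held 6 and 4 lower genes and 1 and 0 higher ones, and the mature list summed to 161 and 422 CPM, with 2 and 1 of its 11 genes at 0 reads. Neutrophils also carry CD11b, and their part in the level of Itgam was not tested. Itgad, the CD11d chain, was at 293 CPM in T-ALL spleen and 591 CPM in normal spleen, 2.01-fold lower (1.92 to 2.11). Its log2 fold of -1.01 lay at the threshold, and the call ended with total counts (-0.99), median-of-ratios scaling (-0.96), the deposited RPKM (-0.98), TMM factors computed without genes of other cells (-0.85), a pseudocount of 5, which left it just under 2-fold, and folds set against the macrophage core median (-0.21). Red pulp and island macrophage genes held 8 lower and 2 higher of 15, and the lower included Cd163 (a haemoglobin scavenger receptor, 45.3 CPM in T-ALL and 311 CPM in normal spleen). The 2 higher were Cd5l, at 875 CPM in T-ALL and 417 CPM in normal spleen, and Marco, at 102 and 37.6 CPM. The part of red pulp macrophages in the level of Itgad was not tested.

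Itgal and Itgb2, the chains of LFA-1, stayed under 2-fold. Itgal was at 676 CPM in T-ALL spleen and 834 CPM in normal spleen, 1.23-fold lower (1.19 to 1.28). Itgb2 was at 768 and 1035 CPM in the same libraries, 1.35-fold lower (1.31 to 1.39). T cells carry LFA-1 too, and 14 of the 17 T cell genes that reached 10 CPM were higher with 0 lower, Lck (a kinase of T cell receptor signalling) among them at 615 CPM in T-ALL and 151 CPM in normal spleen. Their part in the level of Itgal was not tested.

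Both chains of the receptor for MAdCAM-1 were lower in T-ALL spleen. Itgb7 was at 127 CPM in T-ALL and 335 CPM in normal spleen, 2.65-fold lower (2.47 to 2.83). Itga4 was at 338 CPM in T-ALL and 717 CPM in normal spleen, 2.12-fold lower (2.03 to 2.22), and its call ended with TMM factors computed without genes of other cells (log2 fold -0.92 in place of -1.08). B cell genes held 4 lower and 0 higher of 11 and summed to 1775 CPM in T-ALL and 3511 CPM in normal spleen. NK cell genes held 8 lower and 0 higher of 9, while T cell genes held 14 higher and 0 lower of 17. The part of these cells in the levels of Itgb7 and Itga4 was not tested. Itgb1, the partner shared by many alpha chains, was at 325 and 444 CPM in T-ALL and normal spleen, 1.37-fold lower (1.30 to 1.43) and under the threshold. Itga9 was at 190 and 228 CPM (1.20-fold, 1.13 to 1.28) and Itga6 at 14.5 and 26.8 CPM (1.85-fold, 1.49 to 2.30) in T-ALL and normal spleen, and neither was called.

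In the bone marrow the direction was mostly the other one. Of the 10 genes, 9 had more CPM in the T-ALL library than in the normal library, 5 passed 2-fold as higher (Itgad, Itga9, Itgb7, Itgax and Itgal) and 0 were lower. Of the 9716 genes measured, 8.01% were higher and 1.03% lower, 9.04% in all. The median log2 fold of the 10 genes was 0.93, against -0.04 over all genes measured. It lay below the median of the macrophage core list, 2.23 with 13 of 15 genes higher, and 1 integrin gene, Itgad, was above that median.

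Itgad was at 101 CPM in T-ALL bone marrow (942 reads) and 7.71 CPM in normal bone marrow (76 reads), 13.1-fold higher (10.4 to 16.8). Its reads covered 91.3% of the listed length in the T-ALL library and 51.3% in the normal library. Red pulp and island macrophage genes held 13 higher and 0 lower of 15, with a median log2 fold of 3.11, against 3.55 for Itgad. This was not particular to that list. Macrophage core (13 of 15 higher, median 2.23), monocyte (9 of 12, 2.69) and T cell genes (15 of 17, 1.83) also held 0 lower ones. Cd5l, secreted by tissue macrophages, was at 191 CPM in T-ALL and 9.94 CPM in normal bone marrow. What red pulp and island macrophages or other cells add to Itgad was not tested here either. Itga9 was at 41.4 CPM (386 reads) in T-ALL and 9.74 CPM (96 reads) in normal bone marrow, 4.25-fold higher (3.39 to 5.38).

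Itgam had nearly the same level in both bone marrow libraries, at 874 CPM in T-ALL and 726 CPM in normal bone marrow, 1.20-fold higher (1.17 to 1.24) and under the threshold. Csf1r, through which CSF1 sustains macrophages, was at 947 and 133 CPM in the same libraries. Neutrophil precursor genes ran the other way, with 9 of 14 lower and 0 higher, and mature neutrophil genes, 3 of 9 of them higher and 0 lower, summed to 14333 CPM in T-ALL and 15806 CPM in normal bone marrow. Monocytes carry CD11b too, and 9 of their 12 genes were higher and 0 lower (median 2.69 on the log2 scale), with sums of 4502 CPM in T-ALL and 1594 CPM in normal bone marrow. The shares of macrophages, monocytes and neutrophils in the level of Itgam were not tested.

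Itgax was at 97.7 CPM in T-ALL and 45.9 CPM in normal bone marrow, 2.13-fold higher (1.90 to 2.39). Itgal was at 729 CPM in T-ALL and 351 CPM in normal bone marrow, 2.08-fold higher (2 to 2.17), and Itgb2 at 1022 and 645 CPM, 1.58-fold higher (1.53 to 1.63) and not called. Of the 17 T cell genes that reached 10 CPM, 15 were higher and 0 lower, whereas in spleen T cell genes were higher and Itgal was lower. The part of T cells in the level of Itgal was not tested here either. Itgb7 was at 222 CPM in T-ALL and 96.5 CPM in normal bone marrow, 2.30-fold higher (2.13 to 2.48). Its partner Itga4 was at 614 and 350 CPM, 1.75-fold higher (1.68 to 1.83), and Itgb1 at 364 and 295 CPM, 1.23-fold higher (1.17 to 1.30), both under the threshold. Itga6, the laminin receptor chain, was the 1 gene with fewer CPM in T-ALL bone marrow, at 56.4 CPM against 74.7 CPM in normal bone marrow (1.32-fold lower, 1.18 to 1.48).

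**Figure D3:**
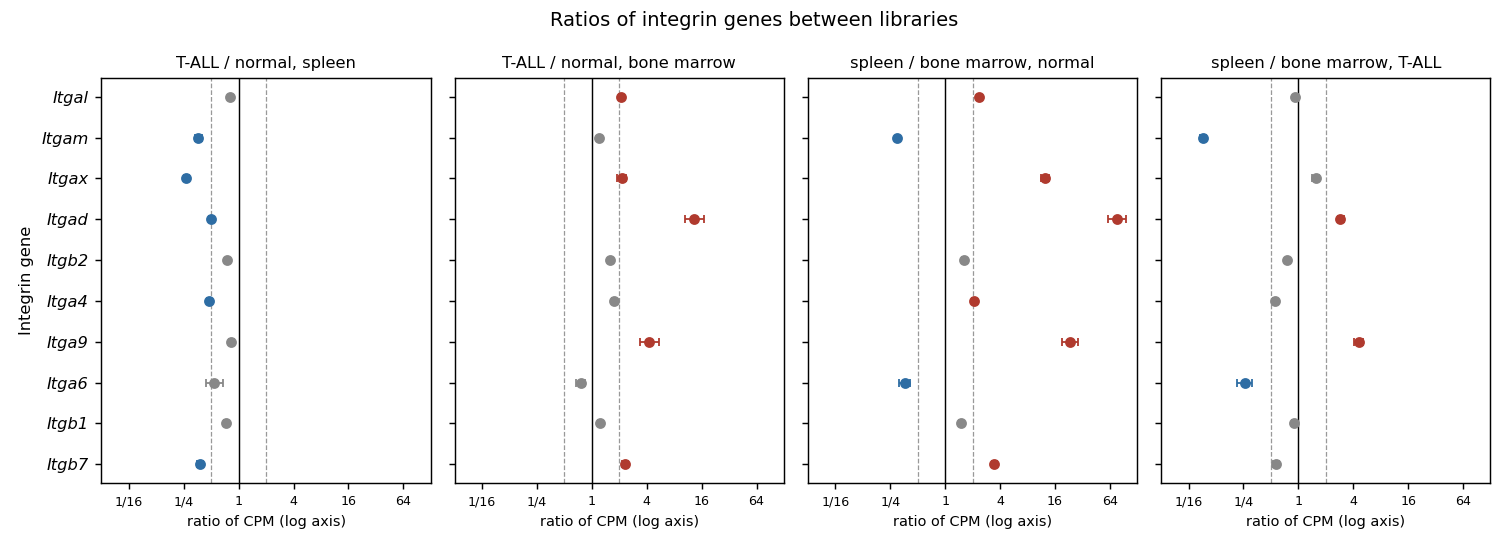
Ratios of CPM (log axis) of the 10 integrin genes in 4 comparisons of 1 library each, with exact binomial 95% counting intervals; dashed lines mark 2-fold, and red and blue points were called higher and lower. All 10 genes lie left of 1 for T-ALL over normal spleen, while 9 lie right of 1 for T-ALL over normal bone marrow.

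The spleen and bone marrow comparisons of T-ALL share no library. Among the 10 genes, 9 had fewer CPM in T-ALL than in normal spleen and more CPM in T-ALL than in normal bone marrow, as did 34.8% of the 9178 genes that passed the minimum in both. Itgad, Itgax and Itgb7 passed 2-fold in opposite directions, lower in spleen and higher in bone marrow, whereas 3.15% of all genes did so. The log2 ratio of CPM in spleen minus that in bone marrow was -4.72 (-5.07 to -4.38) for Itgad, -2.99 (-3.18 to -2.81) for Itgax and -2.60 (-2.75 to -2.46) for Itgb7. It was -2.35 (-2.69 to -2.02) for Itga9, -1.90 (-1.98 to -1.81) for Itga4 and -1.73 (-1.86 to -1.60) for Itgam. The smallest differences were those of Itgal at -1.36 (-1.44 to -1.28), Itgb2 at -1.09 (-1.16 to -1.03), Itgb1 at -0.75 (-0.85 to -0.65) and Itga6 at -0.48 (-0.83 to -0.14). These intervals hold counting error alone, so the difference between organs has no test over animals.

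Between the organs of normal mice 8 of the 10 genes were called, the highest count of the 4 comparisons: 6 were higher in spleen (Itgad, Itga9, Itgax, Itgb7, Itgal and Itga4) and 2 were lower (Itgam and Itga6), where 16.1% of the 10072 genes measured were higher and 14.0% lower, 30.2% in all. Itgad was at 591 CPM in normal spleen and 7.71 CPM in normal bone marrow, 76.7-fold higher (61.1 to 97.5). Itga9 was 23.4-fold higher (19 to 29), at 228 CPM in normal spleen and 9.74 CPM in normal bone marrow. Itgax was 12.4-fold higher (11.3 to 13.7), at 569 and 45.9 CPM. Red pulp and island macrophage genes held 15 higher and 0 lower of 16, with Spic, which red pulp macrophages need to develop, at 234 CPM in normal spleen and 4.36 CPM in normal bone marrow. Genes of other cells were higher in normal spleen as well: 13 of 13 dendritic cell genes (summed to 1634 CPM in normal spleen and 249 CPM in normal bone marrow), 15 of 17 T cell genes with 0 lower (1412 and 304 CPM) and 10 of 13 B cell genes with 2 lower (3511 and 518 CPM). Their part in the levels of Itgax, Itgal, Itga4 and Itgb7 was not tested.

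Itgb7 was 3.47-fold (3.23 to 3.74), Itgal 2.38-fold (2.28 to 2.48) and Itga4 2.05-fold (1.96 to 2.13) higher in normal spleen than in normal bone marrow. The call of Itga4 ended with TMM factors computed without genes of other cells, where its log2 fold was 0.87 in place of 1.03. This scaling moved the median log2 fold of all genes to -0.20 from -0.04 here, and to 0.09 from -0.08 for T-ALL against normal spleen. Itgb2 (1.60-fold, 1.55 to 1.66) and Itgb1 (1.51-fold, 1.43 to 1.58) were under the threshold. Itgam was 3.33-fold lower (3.17 to 3.50), at 218 CPM in normal spleen and 726 CPM in normal bone marrow, and Itga6 was 2.78-fold lower (2.40 to 3.23), at 26.8 and 74.7 CPM. All 14 neutrophil precursor genes and 8 of 9 mature neutrophil genes were lower in normal spleen too, and all 3 megakaryocyte genes that reached 10 CPM. The megakaryocyte list summed to 9.73 CPM in normal spleen and 128 CPM in normal bone marrow, with 1 and 0 of its 10 genes at 0 reads. What these cells add to Itgam and Itga6 was not tested.

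Between the organs of leukaemic mice 4 of the 10 genes were called: 2 were higher in T-ALL spleen than in T-ALL bone marrow (Itga9 and Itgad) and 2 were lower (Itgam and Itga6), where 5.44% of the 9852 genes measured were higher and 11.0% lower, 16.5% in all. Itgam was 11.1-fold lower (10.3 to 12.0), at 78.9 CPM in T-ALL spleen and 874 CPM in T-ALL bone marrow. Itga6 was 3.89-fold lower (3.21 to 4.74), at 14.5 and 56.4 CPM. Itgad was 2.90-fold higher (2.69 to 3.13), at 293 CPM in T-ALL spleen and 101 CPM in T-ALL bone marrow, and Itga9 4.58-fold higher (4.10 to 5.12), at 190 and 41.4 CPM. The remaining 6 genes were within 2-fold, from 1.82-fold lower for Itga4 to 1.56-fold higher for Itgax. In this comparison 13 of 14 neutrophil precursor genes, 9 of 9 mature neutrophil genes and 7 of 12 monocyte genes were lower and 0 higher, and the monocyte genes summed to 1813 CPM in T-ALL spleen and 4502 CPM in T-ALL bone marrow. Their part in the level of Itgam was not tested. The organ comparisons share their libraries with the T-ALL comparisons and are not independent of them.

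The makeup of the alpha chains that share beta2 differed by organ. Per length, Itgam made up 6.53% of the summed RPKM of the 4 alpha chains in T-ALL spleen and 9.38% in normal spleen, against 49.6% in T-ALL bone marrow and 65.8% in normal bone marrow. Itgad made up 28.6% in T-ALL spleen, 30.0% in normal spleen, 6.77% in T-ALL bone marrow and 0.824% in normal bone marrow. Itgax made up 14.7% in T-ALL spleen and 28.5% in normal spleen, but 6.45% in T-ALL and 4.84% in normal bone marrow. Itgal took the rest, 50.2% in T-ALL spleen, 32.2% in normal spleen, 37.1% in T-ALL bone marrow and 28.5% in normal bone marrow. In both organs the share of Itgal was thus larger, and that of Itgam smaller, in the T-ALL library.

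**Figure D4:**
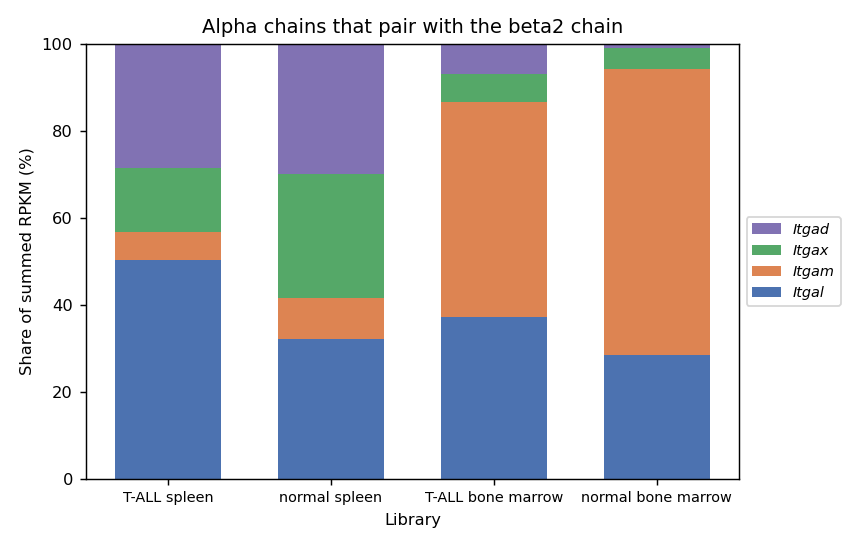
Share (%) of each alpha chain gene in the summed RPKM of Itgal, Itgam, Itgax and Itgad, 1 bar per library. Itgam makes up 49.6% and 65.8% in T-ALL and normal bone marrow but 6.53% and 9.38% in T-ALL and normal spleen.

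The ratio of Itgam to Itgal per length was 0.130 (0.120 to 0.141) in T-ALL spleen, 0.292 (0.277 to 0.307) in normal spleen, 1.34 (1.29 to 1.38) in T-ALL bone marrow and 2.31 (2.22 to 2.41) in normal bone marrow. The summed RPKM of the 4 alpha chains was 0.962 times that of Itgb2 in T-ALL spleen and 1.37 times in normal spleen. In T-ALL and normal bone marrow it was 1.05 and 1.04 times that of Itgb2. For the partners of the alpha4 chain, Itgb1 per length was 1.65 times Itgb7 (1.54 to 1.77) in T-ALL spleen and 0.851 times (0.811 to 0.893) in normal spleen, and 1.05 times (0.998 to 1.11) in T-ALL and 1.96 times (1.82 to 2.12) in normal bone marrow. Normal spleen was the library in which Itgb7 exceeded Itgb1. Itga4 per length was 1.27 times Itga9 (1.20 to 1.35) in T-ALL spleen and 2.24 times (2.13 to 2.36) in normal spleen, against 10.6 times (9.52 to 11.7) in T-ALL and 25.6 times (20.9 to 31.7) in normal bone marrow.

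Most of the remaining integrin genes were scarce in these libraries. All 16 had a read, but only 5 to 6 of them reached 10 CPM in any 1 comparison. Itgb5, which pairs with the chain of Itgav to bind vitronectin, was called in both T-ALL comparisons. It was at 83.8 CPM in T-ALL and 221 CPM in normal spleen (2.64-fold lower, 2.43 to 2.88), and at 114 CPM in T-ALL and 18.6 CPM in normal bone marrow (6.12-fold higher, 5.22 to 7.19). Itgae, which pairs with beta7, was lower in T-ALL spleen, at 4.87 CPM against 18.1 CPM in normal spleen (3.72-fold, 2.66 to 5.30). Itga2b, the alpha chain of platelets and megakaryocytes, was at 4.87 and 7.83 CPM in T-ALL and normal spleen, and at 168 and 236 CPM in T-ALL and normal bone marrow. It was 30.1-fold lower (23.8 to 38.8) in normal spleen than in normal bone marrow. In T-ALL bone marrow Itga1 was the other gene called, at 11.3 CPM against 4.57 CPM in normal bone marrow (2.47-fold higher, 1.73 to 3.58).

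**Figure D5:**
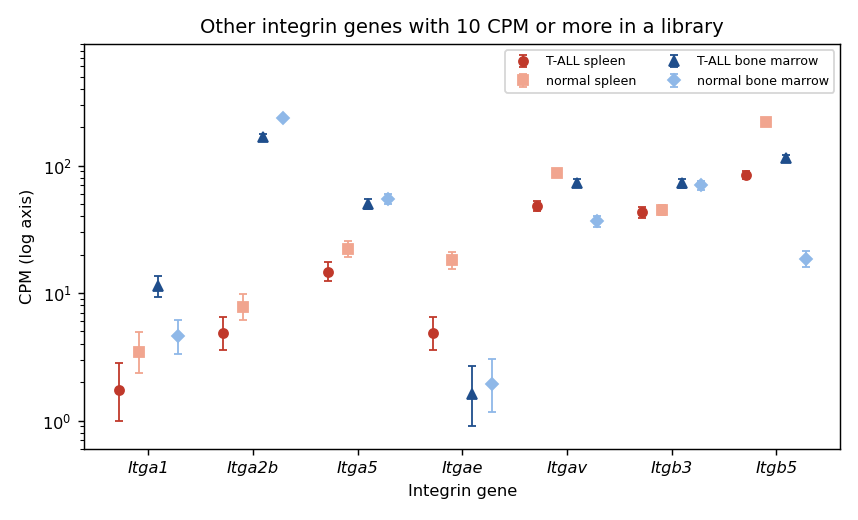
CPM (log axis) of the 7 other integrin genes that reached 10 CPM in a library; each point is 1 library and bars are exact Poisson 95% counting intervals. Itgb5 lies at 83.8 and 221 CPM in T-ALL and normal spleen and at 114 and 18.6 CPM in T-ALL and normal bone marrow.

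Among integrin ligands, T-ALL spleen held 3 higher genes and 1 lower gene of the 9 that reached 10 CPM. Of all genes measured, 10.3% were higher and 11.0% lower. The lower ligand was Vcam1, which encodes a ligand of the alpha4, alpha9 and alphaD integrins, at 974 CPM in T-ALL and 1963 CPM in normal spleen (2.02-fold, 1.97 to 2.07). The higher ones were Thy1 (5.84-fold, 5.47 to 6.24), Thbs1 (3.54-fold, 2.27 to 5.69) and Fn1 (3.37-fold, 2.77 to 4.12), the gene of fibronectin. Thy1 also stands in the T cell list, Fn1 in the monocyte list and Vcam1 in the red pulp and island macrophage list. In T-ALL bone marrow 5 of 10 ligands were higher and 0 lower, where 8.01% of all genes measured were higher and 1.03% lower. Fn1 was at 982 CPM in T-ALL and 64.5 CPM in normal bone marrow (15.2-fold higher, 14.0 to 16.5), Vcam1 at 656 and 136 CPM (4.82-fold, 4.54 to 5.11), Thbs1 at 219 and 26.6 CPM, and Thy1 at 135 and 37.3 CPM. Madcam1, which encodes the ligand of the alpha4 and beta7 pair, had at most 0.336 CPM in any library. Between the normal organs the ligands were split, as 4 of 10 were higher in normal spleen and 4 were higher in normal bone marrow. In normal spleen Vcam1 was 14.4-fold (13.6 to 15.2) and Icam1, which encodes a ligand of the beta2 integrins, 9.02-fold (7.98 to 10.2) higher than in normal bone marrow. The other way went, among others, Emilin1, at 14.4 CPM in normal spleen and 183 CPM in normal bone marrow, and Cdh1, at 4.81 and 53 CPM.

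Of the genes that activate integrins or join them to the cytoskeleton, most were within 2-fold in T-ALL. In T-ALL spleen 1 was higher and 5 were lower of 38, where 10.3% of all genes measured were higher and 11.0% lower. The higher one was Skap1, an adaptor of T cells, at 97.0 CPM in T-ALL and 36.6 CPM in normal spleen (2.65-fold, 2.33 to 3.02), and Skap2, its counterpart in myeloid cells, was lower at 57.5 and 150 CPM (2.61-fold, 2.36 to 2.89). Rasgrp2, an activator of the GTPase Rap1, was lower at 83.9 CPM in T-ALL and 210 CPM in normal spleen (2.50-fold, 2.30 to 2.72), and Dok1 at 34.1 and 81.3 CPM. In T-ALL bone marrow 6 of 37 were higher and 0 lower, where 8.01% of all genes measured were higher and 1.03% lower. The higher ones included Rasgrp1 at 82.6 and 24.5 CPM (3.38-fold, 2.92 to 3.92), Fyb at 297 and 99.4 CPM, Cytip at 275 and 97.7 CPM, and the kinase Fgr at 344 and 129 CPM in T-ALL and normal bone marrow. In T-ALL spleen against T-ALL bone marrow 3 of these genes were higher and 5 lower of 38. Of all genes measured there, 5.44% were higher and 11.0% lower. Vcl (vinculin) was 8.56-fold lower (7.50 to 9.79) in T-ALL spleen than in T-ALL bone marrow. The higher ones included Rasgrp1, at 293 CPM in T-ALL spleen and 82.6 CPM in T-ALL bone marrow, and Skap1, at 97.0 and 23.5 CPM.

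Partner molecules of adhesion held 2 lower and 0 higher of 17 genes in T-ALL spleen, where 11.0% of all genes measured were lower and 10.3% higher. The share of lower genes was thus near that of all genes. Amica1, a junctional adhesion molecule of leukocytes, was at 5.30 CPM in T-ALL and 34.6 CPM in normal spleen (6.52-fold lower, 4.81 to 9), and Esam at 8.99 and 24.2 CPM. Esam also stands in the dendritic cell list. In T-ALL bone marrow 2 of 17 were higher and 0 lower, where 8.01% of all genes measured were higher and 1.03% lower. Sirpa, the receptor for CD47, was at 833 CPM in T-ALL and 288 CPM in normal bone marrow (2.89-fold higher, 2.77 to 3.02), and Amica1 at 19.2 and 8.93 CPM.

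The genes with the pattern most like each integrin were found by the distance between log2(CPM + 1) values centred over the 4 libraries, among 10311 other genes that reached 10 CPM. With only 4 points, each a library shared by all genes, this is a description. Closest to Itgad were Sema6d (distance 0.21), Mertk (0.36), a receptor for dying cells, and Abcc3 (0.55). Mertk was at 121 CPM in T-ALL spleen, 249 CPM in normal spleen, 54.3 CPM in the T-ALL and 3.65 CPM in the normal bone marrow. Closest to Itga9 were Tgm2 (0.32), Epb4.1l3 (0.32) and Rasgef1b (0.45). Closest to Itgax were Tmem37 (0.093), H2-Ab1 (0.23), which encodes an MHC class II chain, and Slc12a2 (0.24). H2-Ab1 was at 968 CPM in T-ALL spleen, 3617 CPM in normal spleen, 759 CPM in the T-ALL and 310 CPM in the normal bone marrow. Closest to Itgam were 1810033B17Rik (0.27), Ptgir (0.34) and Pygl (0.34), the glycogen phosphorylase of liver and leukocytes.

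The flatter members had many close neighbours. Closest to Itgal were Gm20300 (0.038), Ppp2r5b (0.097) and Ubl3 (0.12), and closest to Itgb2 were Rtn4 (0.050), Scand1 (0.064) and Ikbkb (0.064). Closest to Itga4 were Vps9d1 (0.061), Dopey2 (0.062) and Tet2 (0.075), to Itgb1 1500011B03Rik (0.013), Prorsd1 (0.026) and Tbc1d1 (0.034), to Itgb7 Osgin1 (0.051), Sgsh (0.10) and 5031439G07Rik (0.11), and to Itga6 Ctbp2 (0.070), Grik5 (0.084) and Tbc1d24 (0.11). Within the integrins, Itgb1 and Itgb2 lay closest to each other (0.27), followed by Itga4 and Itgb2 (0.47), Itgal and Itgb2 (0.52) and Itgb7 and Itga4 (0.54). Itgad and Itga9 were each other's nearest member at 1.3, and Itgam and Itga6 at 1.1. Itgax stood farthest from any other member (1.7, to Itgb7).

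Unique reads of close relatives can be lost where sequences are shared. Of the 50-base stretches in the longest GENCODE M21 coding transcript, 9.81% of those of Itgad and 9.61% of those of Itgax also stand in a transcript from elsewhere in the genome, for the most part each other's. The share was 6.50% for Itga6, 1.16% for Itgb2, 0.103% for Itga4 and 0% for Itgam, Itgal, Itgb1, Itgb7 and Itga9. In RefSeq, Cox6a2 overlaps Itgad and Cerkl overlaps Itga4. Cox6a2 had 46, 83, 43 and 44 reads in T-ALL spleen, normal spleen, T-ALL bone marrow and normal bone marrow, and Cerkl 14 to 25 reads. The sources used here do not give the strand setting of the counts, so reads in such overlaps are uncertain, most of all for Itgad in normal bone marrow with its 76 reads.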

How the data were processed

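RNA of sorted macrophages was sequenced in 4 libraries, 1 per group, grouped by sample title. Per the labels' protocols, a Qiagen RNeasy kit yielded the RNA, and libraries followed Illumina protocols. The deposited counts are, per the file headers, uniquely mapped reads per gene; genes with no line were set to 0. The deposited RPKM, and the length (an other value, in bases) and percent of length covered, are the authors' values per the file headers; RPKM was recomputed from counts to within 9.15e-06%. The sources used here do not give the aligner, genome build or counting rule.

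CPM was computed on totals scaled by TMM (edgeR 4.0.16, R 4.3.3; factors 0.991 to 1.008). With 1 library per group no model was fitted. Calls need 2-fold on log2(CPM + 1), which understates the change of low genes, and 10 CPM in the higher library. Fold intervals are exact binomial and level intervals exact Poisson, both 95%. Computation used Python 3.11.15, scipy 1.17.1, numpy 2.4.6, pandas 2.3.3 and, for figures, matplotlib 3.10.9. List genes were matched by symbol or by RefSeq synonym (GRCm38.p6). The 18 lists, that of the integrins among them, were chosen with earlier results of these data known. Named are all members, per list and comparison up to 4 called genes with the largest log2 fold, and the 3 genes of most similar pattern. Outside this rule are Ddx3y, Xist, Dpp4, Madcam1, Cox6a2, Cerkl and the levels of Itga2b in T-ALL comparisons where it was not called. Also outside it are Lyz2, Cybb and Csf1r in the account of the marker sums, and Ciita, Ccr7, Btla, Cd5l and Marco in T-ALL against normal spleen. They were chosen after their values were seen. Alternatives were other scalings, pseudocounts, minimums, thresholds and the deposited RPKM.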

Additional observations from a re-analysis of the deposited data

Results flagged for a closer look

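Itgad, Itgax and Itgb7 passed 2-fold in opposite directions in the organs, and this difference was not tested, since each group has 1 library. The log2 fold of T-ALL against normal was -1.01 in spleen and 3.55 in bone marrow for Itgad, -1.90 and 1.07 for Itgax, and -1.40 and 1.19 for Itgb7. The spleen value of Itgad lay at the threshold. No group was large enough to look for a sample far from the others.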

How the results depend on the processing

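No paired analysis was possible because each group has 1 library and the labels give no replicate numbers. Scaling by total counts or median of ratios, no minimum, a minimum of 50 CPM, a pseudocount of 0.1 or 5 and the deposited RPKM kept every count of called integrins within 1.5 times. At a 1.5-fold threshold, 4 were lower in T-ALL spleen against T-ALL bone marrow, in place of 2. At a 4-fold threshold, 1 was higher in T-ALL bone marrow, 0 lower in T-ALL spleen, 3 higher and 0 lower in normal spleen against normal bone marrow, and 1 higher and 1 lower in T-ALL spleen against T-ALL bone marrow. Shares of all genes called were computed for the main 2-fold setting alone, so counts under other settings cannot be set against such a share. With TMM factors computed without genes of other cells, 3 were lower in T-ALL spleen. Folds set against the macrophage core median shift all genes alike, and the median over all genes became -2.27 in T-ALL bone marrow, 0.72 in T-ALL spleen and -2.92 in normal spleen against normal bone marrow. With that shift 1 integrin was higher and 8 lower in T-ALL bone marrow, 1 lower in T-ALL spleen, and 2 higher and 7 lower in normal spleen against normal bone marrow. By that measure the log2 folds turned to -1.16 for Itgax, -1.18 for Itgal, -1.04 for Itgb7 and -0.25 for Itga9 in T-ALL bone marrow, and to -1.64 for Itgal, -1.86 for Itga4 and -1.10 for Itgb7 in normal spleen against normal bone marrow, because the median of those macrophage genes, 2.23 and 2.89 on the log2 scale, was subtracted from every gene. As shares of reads in place of RPKM, Itgam made up 6.57% of the alpha chains in T-ALL spleen and 64.2% in normal bone marrow. Depth limits Itgad and Itga9 in normal bone marrow most, with 76 and 96 reads.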
